A study of Homo sapiens with 3 samples.

Results

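The genes described are 10 autophagy genes, MAP1LC3B, WIPI1, TP53INP2, SQSTM1, GABARAPL1, ULK1, BECN1, ATG5, ATG7 and ATG12, of 19775 genes with a probe set of their own on the array. They were chosen by name, and every probe set that carries the symbol of 1 of them and of no other gene was used, 26 of 54675. The cells were SKOV-3, an ovarian cancer (OCa) cell line, stably transduced with G9a shRNA1, with G9a shRNA2 or with a control hairpin that targets luciferase (Luc shRNA), and all 3 lines were selected with puromycin. G9a, the product of EHMT2, methylates lysine 9 of histone H3, a mark of silent chromatin. Each line was measured on 1 Affymetrix array, which leaves every gene without a replicate error and each shRNA's comparison without a test. Where 3 signals are given, they are those with Luc shRNA, G9a shRNA1 and G9a shRNA2 in that order, and where 2 log2 ratios are given, they are those of G9a shRNA1 and G9a shRNA2 to Luc shRNA. The comparison of each G9a shRNA array with the Luc shRNA array asks how the transcripts of these genes stood after G9a depletion. Both comparisons use the same Luc shRNA array, so a deviation on that array enters both in the same direction.

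Autophagy carries cytoplasm and organelles to the lysosome for breakdown. The ULK1 kinase complex starts the process, the class III PI3-kinase complex around Beclin 1 marks the growing membrane with a phospholipid that WIPI proteins bind, and the ATG7, ATG12 and ATG5 proteins attach LC3 and its relatives to that membrane. The cargo receptor p62, the product of SQSTM1, binds LC3 and is itself broken down on the way, so its protein level and its transcript can part. Cancer cells use the process to live through stress. MAP1LC3B, WIPI1 and TP53INP2 are known from other cell types as genes that G9a holds down, which is the reason for looking at them here.

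The promoters of 4 of the genes are shown because G9a acts on chromatin: MAP1LC3B and TP53INP2 as genes known to be held down by G9a, SQSTM1 as the cargo receptor that stood higher with both shRNAs, and GABARAPL1 as the LC3 relative that stood lower. The arrays measure no chromatin, so the sequences are context and not a result. Each is the 250 bases before a RefSeq transcription start in GRCh38.p14, 5′ to 3′ on the plus strand, which is the strand of all 4 genes. They lie at chr16:87392086-87392335 (MAP1LC3B), chr5:179820655-179820904 (SQSTM1), chr20:34704094-34704343 (TP53INP2) and chr12:10212627-10212876 (GABARAPL1). For SQSTM1 the window is the last of 3 listed starts, 14512 bases inside the listed gene, and for TP53INP2 it is the first of 2. Capitals mark matches, on either strand, to GGGCGG (GC box), CCAAT, TGACNNNGC (antioxidant response element core) or TGACGTCA (cAMP response element).
MAP1LC3B: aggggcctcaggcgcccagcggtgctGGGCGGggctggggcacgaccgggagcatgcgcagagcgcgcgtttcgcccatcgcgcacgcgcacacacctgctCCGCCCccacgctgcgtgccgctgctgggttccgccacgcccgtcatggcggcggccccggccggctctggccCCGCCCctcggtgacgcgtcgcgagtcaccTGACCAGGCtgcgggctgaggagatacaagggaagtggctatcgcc
SQSTM1: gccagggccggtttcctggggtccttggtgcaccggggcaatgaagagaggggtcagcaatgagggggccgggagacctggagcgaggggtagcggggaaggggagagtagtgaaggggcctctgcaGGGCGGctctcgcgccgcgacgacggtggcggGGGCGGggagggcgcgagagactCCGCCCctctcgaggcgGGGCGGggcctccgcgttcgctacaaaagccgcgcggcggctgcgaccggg
TP53INP2: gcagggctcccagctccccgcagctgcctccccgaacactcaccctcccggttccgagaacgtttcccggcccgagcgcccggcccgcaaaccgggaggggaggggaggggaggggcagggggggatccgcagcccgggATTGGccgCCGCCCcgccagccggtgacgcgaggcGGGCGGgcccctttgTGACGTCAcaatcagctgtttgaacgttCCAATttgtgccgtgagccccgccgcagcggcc
GABARAPL1: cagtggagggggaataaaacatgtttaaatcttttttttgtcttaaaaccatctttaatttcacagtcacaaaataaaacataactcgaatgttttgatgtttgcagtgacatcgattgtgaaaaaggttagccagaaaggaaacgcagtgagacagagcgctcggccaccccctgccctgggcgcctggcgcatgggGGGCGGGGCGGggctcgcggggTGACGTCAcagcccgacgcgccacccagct

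All 10 genes had at least 1 promoter window in the RefSeq table, 14 windows in all. The MAP1LC3B window held 33 CG dinucleotides, the SQSTM1 window 29, the TP53INP2 window 27 and the GABARAPL1 window 15, where the median of 35116 windows was 11. Over all 14 windows the count ran from 2, in a second ATG5 window, to the 33 of MAP1LC3B, and the window of BECN1, whose listed start lies inside its gene, held 11 and no GC box. A GC box was found in 11 of the 14 windows, which belong to 8 of the 10 genes, and 42.6% of all windows held one. The antioxidant response element core was found in MAP1LC3B only, 46 to 38 bases before the start, and 10.9% of all windows held it. The cAMP response element was found in TP53INP2, 61 to 54 bases before the start, and in GABARAPL1, 30 to 23 bases before it, and 1.65% of all windows held it. CACGTG, the E-box bound by TFEB and its relatives, was found in none of the 14 windows and in 6.34% of all windows. These are matches of letters in short windows and not binding sites.

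EHMT2, the targeted gene, read 182, 29.7 and 79.2 at its brightest probe set, log2 ratios of -2.62 and -1.20. EHMT1, the partner of G9a, gave log2 ratios of 0.06 and -0.01. Of 10 carcinoma markers, 9 passed the signal filter given below, among them ERBB2, which is amplified in this cell line, at 1828, 1421 and 1803. MUC16 did not pass. The summed signals of the 10 were 7672, 9180 and 10690, but bright genes weigh most in such a sum. EPCAM alone read 1128, 2350 and 2226, and the paper names EPCAM and CDH1 as genes that G9a suppresses. Of the 9 past the filter, 7 were above the control on the G9a shRNA1 array and 8 on the G9a shRNA2 array. ERBB2 was below it on both, and PAX8 on the G9a shRNA1 array only. None of 3 leukocyte markers passed (summed signals of 8.37, 12.4 and 14.7), and of 3 endothelial markers only PECAM1 did, at 15.4, 29.9 and 28.5 (summed 20.3, 32.7 and 38.4). The 3 mesothelial markers all passed, with summed signals of 116, 90.2 and 112. The ratio of 3′ to 5′ signal for β-actin, a sign of RNA integrity, was 3.68 on the control array, then 1.83 and 1.47, while that for GAPDH lay between 1.12 and 1.15. The part of these differences in the results that follow was not tested. The arrays read bulk RNA, so fewer cells with a transcript and less RNA per cell cannot be told apart.

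Among the 10 genes at their brightest probe sets, MAP1LC3B and SQSTM1 stood higher with both G9a shRNAs and BECN1 lower with both, each by less than 2-fold. GABARAPL1 was lower with both shRNAs as well, but from a dimmer signal. TP53INP2 and WIPI1, the other genes known to be held down by G9a, were above the control with G9a shRNA2 and not with G9a shRNA1 at their brightest probe sets. The other WIPI1 probe set was below the control with both shRNAs, at log2 ratios of -0.45 and -0.24. Of the core conjugation genes at their brightest probe sets, ATG5 lay within its local spread, a measure explained next, with both shRNAs. ATG7 and ATG12 did so with G9a shRNA1, while with G9a shRNA2 both were below the control by just over 1 local spread. Their other probe sets differed, and the dimmest of ATG12 was 2.09-fold lower with G9a shRNA2. The WIPI1 ratio above the control with G9a shRNA2 also lay within its local spread. ULK1 was above the control with both shRNAs, at 0.21 and 0.36, and likewise within its local spread. Of the 5 SQSTM1 probe sets, the 2 dimmest were below the control with G9a shRNA1, at -0.53 and -0.07.

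Signals are on the linear scale of the MAS5 software. Probe sets whose 3 signals all lay under the median of all values, 12.0, were left out, so that 25 of the 26 probe sets and all 10 genes remained, and a gene is represented by its brightest probe set. In place of a replicate error, each ratio is set beside the local spread. This is the SD of the log2 ratio between the 2 G9a shRNA arrays over the 500 probe sets nearest in mean signal. It includes real differences between the shRNAs and leaves out the variation of the Luc shRNA array. Over the 25 probe sets it ranged from 0.16 for the brightest to 0.50 for the dimmest.

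**Figure D1:**
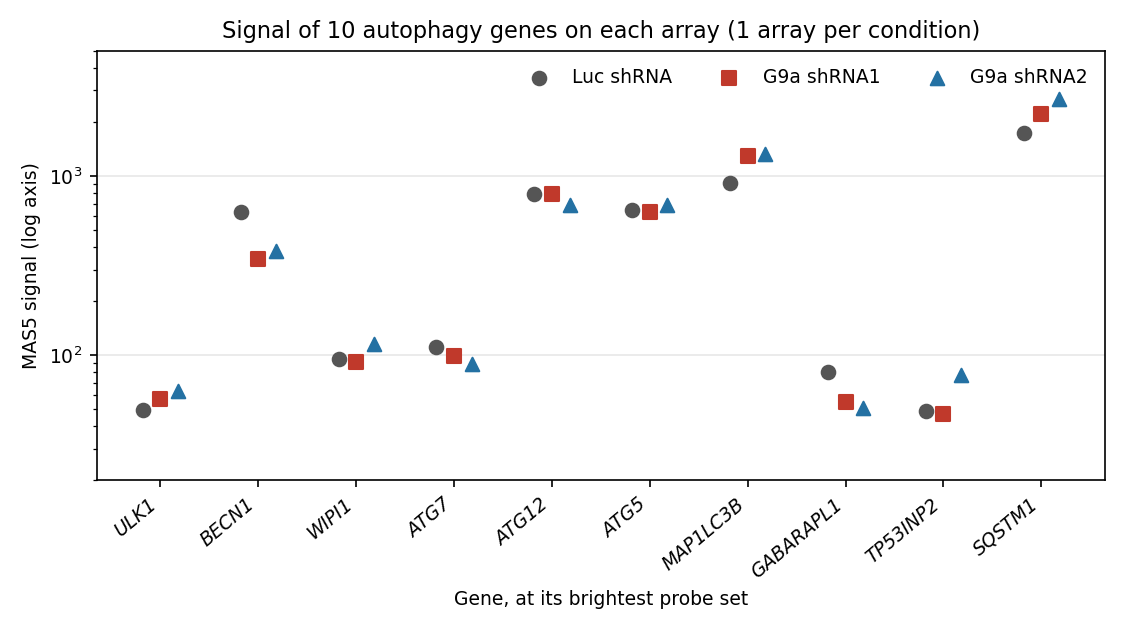
The signal of each gene's brightest probe set on the Luc shRNA (circle), G9a shRNA1 (square) and G9a shRNA2 (triangle) arrays, 1 array per condition, on a log axis. BECN1 went from 628 to 345 and 381 and MAP1LC3B from 909 to 1294 and 1332, while signals of different genes are not comparable with each other.

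ULK1, the kinase that starts autophagosome formation, had 1 probe set, which read 49.1, 56.9 and 62.8. The log2 ratios were 0.21 and 0.36 beside a local spread of 0.37. Both G9a shRNA arrays lay above the control by less than that spread.

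BECN1 encodes Beclin 1, the scaffold of the class III PI3-kinase complex that BCL2 proteins can bind and hold inactive. At its brightest probe set the signal was 628 on the control array against 345 and 381 on the others. The signal was thus 1.82-fold lower with G9a shRNA1 and 1.65-fold lower with G9a shRNA2, log2 ratios of -0.86 and -0.72 beside a local spread of 0.22. Its second probe set went the same way, from 449 to 237 and 259, log2 ratios of -0.92 and -0.79 beside a spread of 0.23. Both probe sets were more than 3 local spreads below the control with each shRNA, and no other of the 10 genes stood as far below it at its brightest probe set. Among the 500 probe sets nearest in signal, the ratio of the brightest lay at percentiles 2.8 and 1.4. A further BECN1 probe set was near the background at 0.540, 5.37 and 3.39 and did not pass the filter. If that probe set is averaged in with the others, the BECN1 ratio turns to 0.51 and 0.38, and averaged over those past the filter it is -0.89 and -0.76.

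WIPI1 encodes a protein that binds the phospholipid made by the PI3-kinase and helps to recruit the conjugation machinery. One probe set read 94.5, 91.6 and 115, log2 ratios of -0.05 and 0.28. The other read 94.9, 69.5 and 80.5, log2 ratios of -0.45 and -0.24. Both probe sets were below the control with G9a shRNA1, and they lay on opposite sides of it with G9a shRNA2. The local spread was 0.28 for the first, which is the brighter over the 3 arrays, and 0.32 for the other, so only the ratio of -0.45 went beyond 1 local spread. On the control array alone the other was slightly the brighter, so the choice between them rested on the G9a shRNA arrays.

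ATG7 is the E1-like enzyme that activates both ATG12 and the LC3 proteins. Its brightest probe set read 111, 99.3 and 88.6, log2 ratios of -0.16 and -0.32 beside a local spread of 0.29. The next read 90.5, 92.7 and 92.3, with ratios of 0.03 with each shRNA. The dimmer pair differed in sign, with ratios of -0.19 and -0.22 in one and 0.21 and 0.50 in the other. The average over its 4 probe sets was -0.03 and -0.00.

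ATG12 is the ubiquitin-like protein that ATG7 passes on to ATG5. The brightest of its probe sets read 790, 788 and 685, log2 ratios of -0.00 and -0.20 beside a local spread of 0.20. A second read 299, 239 and 260, ratios of -0.32 and -0.20. The dimmest read 162, 130 and 77.6, and its ratio of -1.06 with G9a shRNA2, a 2.09-fold lower signal, made it the only one of the 25 probe sets past 2-fold. With G9a shRNA1 the same probe set gave -0.31. With G9a shRNA2 the brighter pair thus gave the same ratio and the dimmest a larger one, and which transcripts each reads was not analysed here. Averaged over its 3 probe sets, ATG12 gave -0.21 and -0.49.

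ATG5 forms the conjugate with ATG12 that drives LC3 lipidation. The brightest probe set for ATG5 read 647, 631 and 692, log2 ratios of -0.04 and 0.10 beside a local spread of 0.20. The others gave 0.12 and 0.27 from a control signal of 231, and -0.05 and -0.17 from 148. At its brightest probe set ATG5 lay within the local spread with each shRNA, and its sign depended on the scaling, with -0.02 for G9a shRNA2 after quantile normalization.

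MAP1LC3B encodes LC3B, the ubiquitin-like protein that is bound to the autophagosome membrane and serves as its common marker. Its brightest probe set read 909, 1294 and 1332, with both G9a shRNA arrays above the control. The signal was 1.42-fold and 1.47-fold higher, log2 ratios of 0.51 and 0.55 beside a local spread of 0.18. Its second probe set read 571, 754 and 801, log2 ratios of 0.40 and 0.49 beside a spread of 0.20. All 4 ratios were above 2 local spreads, and the G9a shRNA arrays differed from each other by a log2 ratio of 0.04 at the brightest. That probe set lay at percentile 97 with G9a shRNA1 and 96.6 with G9a shRNA2 among the 500 nearest in signal.

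GABARAPL1, an LC3 relative of the GABARAP branch, went the other way. The brighter of its probe sets read 80.1, 54.9 and 50.8, log2 ratios of -0.54 and -0.66. The local spread at this signal was 0.38, so both ratios were under 2 local spreads. The other probe set read 56.8, 46.2 and 55.1, ratios of -0.30 and -0.04. A further probe set that GABARAPL1 shares with GABARAPL3, and that the single-symbol rule leaves out, read 155, 116 and 112, ratios of -0.43 and -0.47. All 3 were lower than the control on both G9a shRNA arrays, by amounts from -0.04 to -0.66.

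TP53INP2, also called DOR, encodes a nuclear protein that moves to autophagosomes and binds LC3 proteins there. Its 1 probe set read 48.9, 46.7 and 77.4. The log2 ratio was -0.07 with G9a shRNA1 and 0.66 with G9a shRNA2, beside a local spread of 0.37. The G9a shRNA2 array alone lay above the control, by under 2 local spreads, and it was 0.73 above the G9a shRNA1 array on the log2 scale, while EHMT2 was lower with G9a shRNA1 than with G9a shRNA2. Whether the 2 differences are linked was not tested.

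SQSTM1 encodes p62, which links ubiquitinated cargo to LC3. At its brightest probe set it read 1739, 2226 and 2701. The signal was 1.28-fold and 1.55-fold higher, log2 ratios of 0.36 and 0.64 beside a local spread of 0.16, the smallest of the 25 probe sets. Both ratios were above 2 local spreads, and they lay at percentiles 92.8 and 98 among the 500 nearest in signal. A probe set with a control signal of 106 gave 0.43 and 0.67, and another went from 60.4 to 109 and 115, ratios of 0.85 and 0.93. The 2 dimmest did not show this, with ratios of -0.53 and 0.01 from a control signal of 45.5 and of -0.07 and 0.49 from 18.1. The 3 brighter probe sets were thus above the control on both G9a shRNA arrays, and both dimmer ones were below it with G9a shRNA1.

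**Figure D2:**
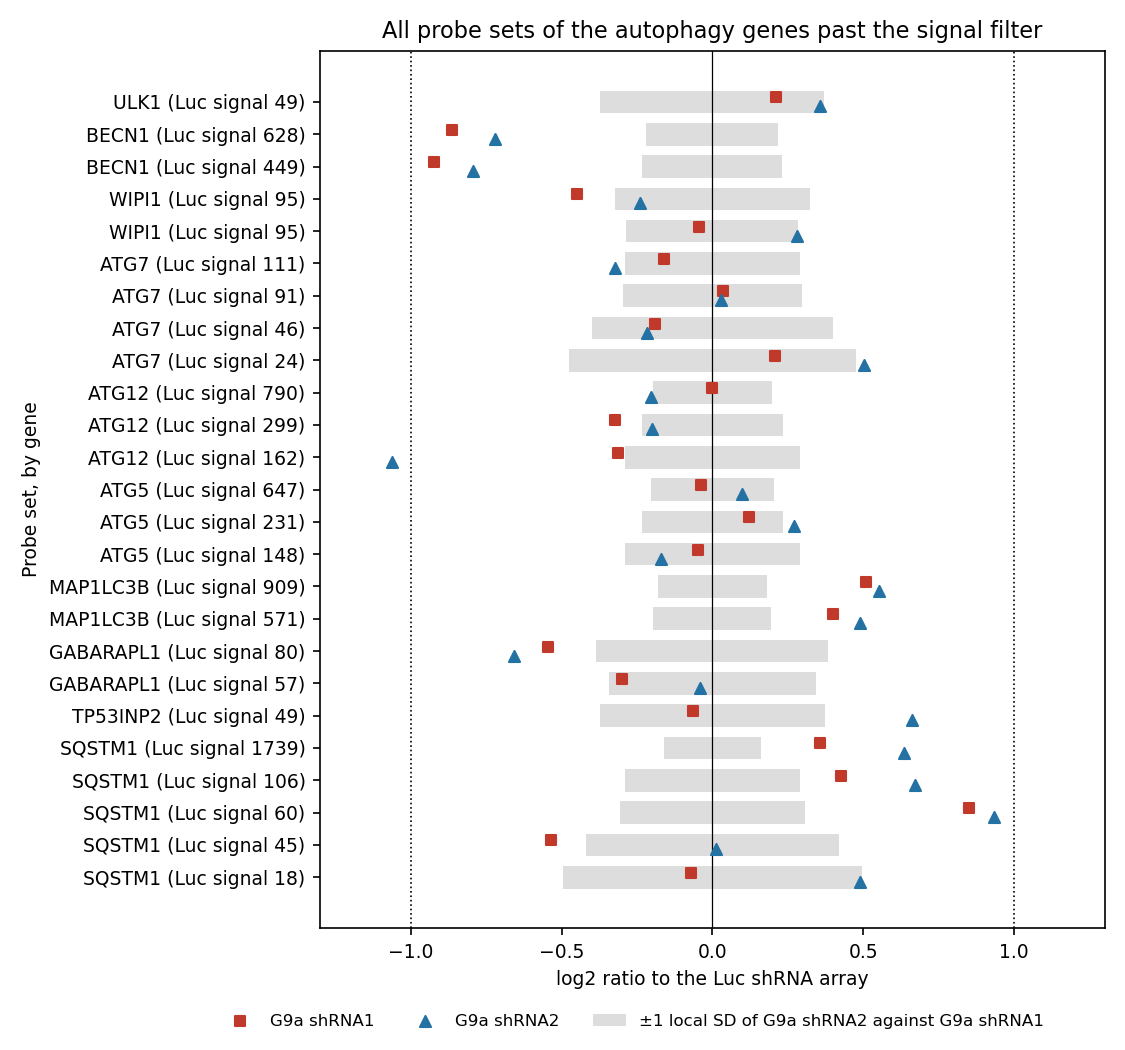
The log2 ratio to the Luc shRNA array of each of the 25 probe sets past the signal filter, with G9a shRNA1 as squares, G9a shRNA2 as triangles and the local spread (1 SD on either side of 0) as a grey bar. Both BECN1 probe sets lie left of the bar and both MAP1LC3B probe sets right of it with each shRNA, those of WIPI1 and ATG7 lie on both sides of 0, and dotted lines mark 2-fold.

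By the study's rule of more than 2-fold, none of the 10 genes was higher or lower with either shRNA at its brightest probe set. Of all 13192 genes kept, 4.21% were higher and 5.10% lower with G9a shRNA1, and 4.35% were higher and 3.58% lower with G9a shRNA2, so a list of 10 would hold few such genes at the background rate. At 1.5-fold, none of the 10 was higher and only BECN1 was lower with G9a shRNA1, where 10.6% of all genes were higher and 12.0% lower. With G9a shRNA2, TP53INP2 and SQSTM1 were higher and BECN1 and GABARAPL1 lower, where 12.7% of all genes were higher and 7.97% lower. After quantile normalization no gene of the 10 was past 1.5-fold higher with G9a shRNA2. Each gene is 10% of the list, so 1 gene more or less moves its share by about as much as the background itself.

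Read against the local spread, 3 of the 10 genes, MAP1LC3B, SQSTM1 and BECN1, were more than 2 local spreads from the control with each shRNA. Of all genes kept, 17.8% were that far from it with G9a shRNA1 and 15.7% with G9a shRNA2. The median log2 ratio of the 10 was -0.04 with G9a shRNA1 and 0.19 with G9a shRNA2, where the medians of all genes kept were 0.00 and 0.12. The 10 genes as a set were therefore centred near all other genes, with members on both sides.

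**Figure D3:**
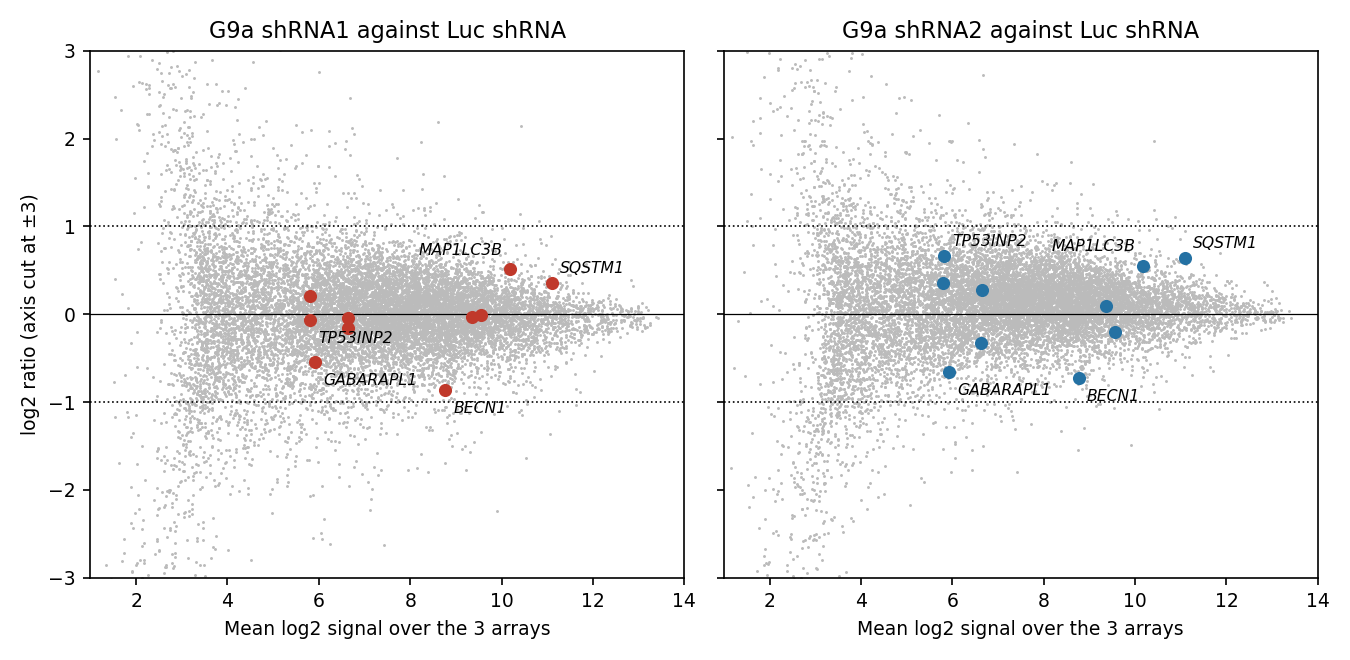
The log2 ratio to the Luc shRNA array against the mean log2 signal over the 3 arrays for all genes kept (grey) and the 10 autophagy genes (coloured), with dotted lines at 2-fold and 180 genes outside the plotted ratios. The scatter narrows as the signal grows, and the 10 genes lie inside the 2-fold lines, with BECN1 at -0.86 and -0.72 as the lowest.

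A wider list of 107 autophagy genes, sorted by role and containing the 10, was measured for 104, and 103 passed the filter. At 2-fold, 2 of the 103 were higher and 2 lower with G9a shRNA1, and 2 were higher and 0 lower with G9a shRNA2. At 1.5-fold, 9 (8.74%) were higher and 10 (9.71%) lower with G9a shRNA1, and 13 (12.6%) were higher and 5 (4.85%) lower with G9a shRNA2. None of these shares was above that of all genes kept, but this depended on the filter. With the filter at the 75th percentile of all values, 89.7, the shares past 1.5-fold were 7.06% higher and 9.41% lower with G9a shRNA1, against 5.50% and 7.12% of all genes past it. With G9a shRNA2 they were then 12.9% higher and 3.53% lower, against 8.33% and 2.65%. The filter takes a gene's highest signal on any array, so a gene can pass only through the arrays where it is high. MCOLN1 (62.9, 119 and 122) passed through the G9a shRNA arrays alone and RETREG1 (112, 26.6 and 60.2) through the Luc shRNA array alone. All genes passed by the same rule, and its part in these shares was not tested. For all genes, the share higher with G9a shRNA1 was 10.6% with the median filter and 5.50% with the stricter one. The median log2 ratio was -0.01 with G9a shRNA1 and 0.18 with G9a shRNA2, or 0.02 and 0.07 after quantile normalization. The genes named below are those past 2-fold with either shRNA and the 2 of each role with the largest mean ratio in size. At 1.5-fold, the counts by role below stand beside 10.6% of all genes kept higher and 12.0% lower with G9a shRNA1. With G9a shRNA2 those shares were 12.7% and 7.97%.

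Of the 5 genes of the ULK1 initiation complex, none was past 1.5-fold, and the median ratio was 0.21 with G9a shRNA1 and 0.36 with G9a shRNA2. ATG101, a subunit that steadies the complex, read 402, 555 and 573, ratios of 0.46 and 0.51. ATG13, the subunit that links ULK1 to the others, gave 0.30 and 0.42.

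Of the 8 genes of the class III PI3-kinase complex, BECN1 was the only one past 1.5-fold with either shRNA. The median ratio of the 8 was 0.20 with G9a shRNA1 and 0.19 with G9a shRNA2, on the other side of 0 from BECN1. Those medians were 0.43 and 0.42 with all probe sets averaged, and 0.20 and 0.06 after quantile normalization. ATG14, the subunit that directs the complex to autophagy, gave 0.35 and 0.36. Of the 3 BCL2 proteins listed as binding Beclin 1, BCL2 read 56.4, 35.5 and 35.3, ratios of -0.67 and -0.68 beside a local spread of 0.40. BCL2L1, which encodes BCL-XL, read 232, 342 and 365, ratios of 0.56 and 0.65 beside a spread of 0.22. BCL2 and BCL2L1 thus stood on opposite sides of the control. MCL1 gave 0.09 and 0.22 beside a spread of 0.19. At 1.5-fold, 0 of the 3 were higher and 1 lower with G9a shRNA1, and 1 was higher and 1 lower with G9a shRNA2.

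The 10 genes of phagophore expansion had no gene past 1.5-fold and medians of -0.03 and 0.21. TMEM41B, a lipid scramblase, read 442, 567 and 661, ratios of 0.36 and 0.58, and ATG2A, which carries lipid to the membrane, gave 0.31 and 0.43. Of the 11 conjugation enzymes, ATG4A, a protease that trims and releases LC3 proteins, was past 2-fold with both shRNAs. It read 16.6, 39.3 and 37.9, ratios of 1.24 and 1.19 beside a local spread of 0.45, from a signal near the filter. ATG16L1, which places the ATG12 and ATG5 conjugate on the membrane, gave 0.56 and 0.72. The median of the enzymes was 0.03 and 0.09. At 1.5-fold, 1 of the 11 was higher and 1 lower with G9a shRNA1, and 2 were higher and 0 lower with G9a shRNA2.

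The LC3 and GABARAP genes did not all lie on 1 side of the control. Besides MAP1LC3B and GABARAPL1, 4 of them passed the filter and are named here after their values were seen. GABARAP gave 0.03 and 0.32, GABARAPL2 -0.00 and 0.14, MAP1LC3A -0.70 and 0.02, and MAP1LC3C 0.50 and 0.51. The last 2 were dim, with control signals of 17.9 and 12.0 and local spreads of 0.61 and 0.63. The median of the 6 was 0.01 with G9a shRNA1 and 0.23 with G9a shRNA2. At 1.5-fold, 0 of the 6 were higher and 1 was lower with each shRNA.

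Of 14 cargo receptors and adaptors, a list that holds SQSTM1 and TP53INP2, RETREG1 was the only one past 2-fold. RETREG1, the receptor that sends endoplasmic reticulum to autophagy, read 112, 26.6 and 60.2. Its ratios were -2.07 and -0.89 beside a local spread of 0.38. The median of the 14 was -0.18 with G9a shRNA1 and 0.12 with G9a shRNA2. At 1.5-fold, 0 of the 14 were higher and 2 lower with G9a shRNA1, and 2 were higher and 1 lower with G9a shRNA2.

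The 8 genes of autophagosome to lysosome fusion had medians of 0.22 and 0.35, or 0.11 and 0.12 with all probe sets averaged. VAMP8, the SNARE protein on the lysosome side, read 525, 935 and 909, ratios of 0.83 and 0.79 beside a local spread of 0.19. STX17, its partner on the autophagosome, gave 0.37 and 0.70. Both were above the control with each shRNA at their brightest probe sets.

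Of 15 measured lysosome genes, NEU1, a sialidase, was the only one past 2-fold. It read 218, 308 and 452, ratios of 0.49 and 1.05 beside a local spread of 0.23. MCOLN1, a calcium channel of the lysosome, read 62.9, 119 and 122, ratios of 0.92 and 0.96. At 1.5-fold, 2 of the 15 (13.3%) were higher and 2 (13.3%) lower with G9a shRNA1, against 10.6% and 12.0% of all genes kept. With G9a shRNA2, 4 (26.7%) were higher and 0 lower, against 12.7% and 7.97%. In a list of 15, 1 gene more or less moves such a share widely. The medians were -0.07 and 0.14.

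Among 9 transcription factors of autophagy genes, DDIT3, the stress factor CHOP, read 194, 443 and 357. Its ratios were 1.19 and 0.88 beside a local spread of 0.23. FOXO1 gave 0.59 and 0.55 at its brightest probe set, and the median of the 9 was -0.04 and 0.25. Among 14 genes of mTORC1 and AMPK signalling, which set how strongly autophagy is held back by nutrients, DDIT4 read 826, 292 and 474. DDIT4 encodes REDD1, an inhibitor of mTORC1, and its ratios were -1.50 and -0.80 beside a local spread of 0.20. AKT1S1, a subunit of mTORC1 that restrains it, gave 0.66 and 0.78, and the median of the 14 was -0.03 and 0.18.

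**Figure D4:**
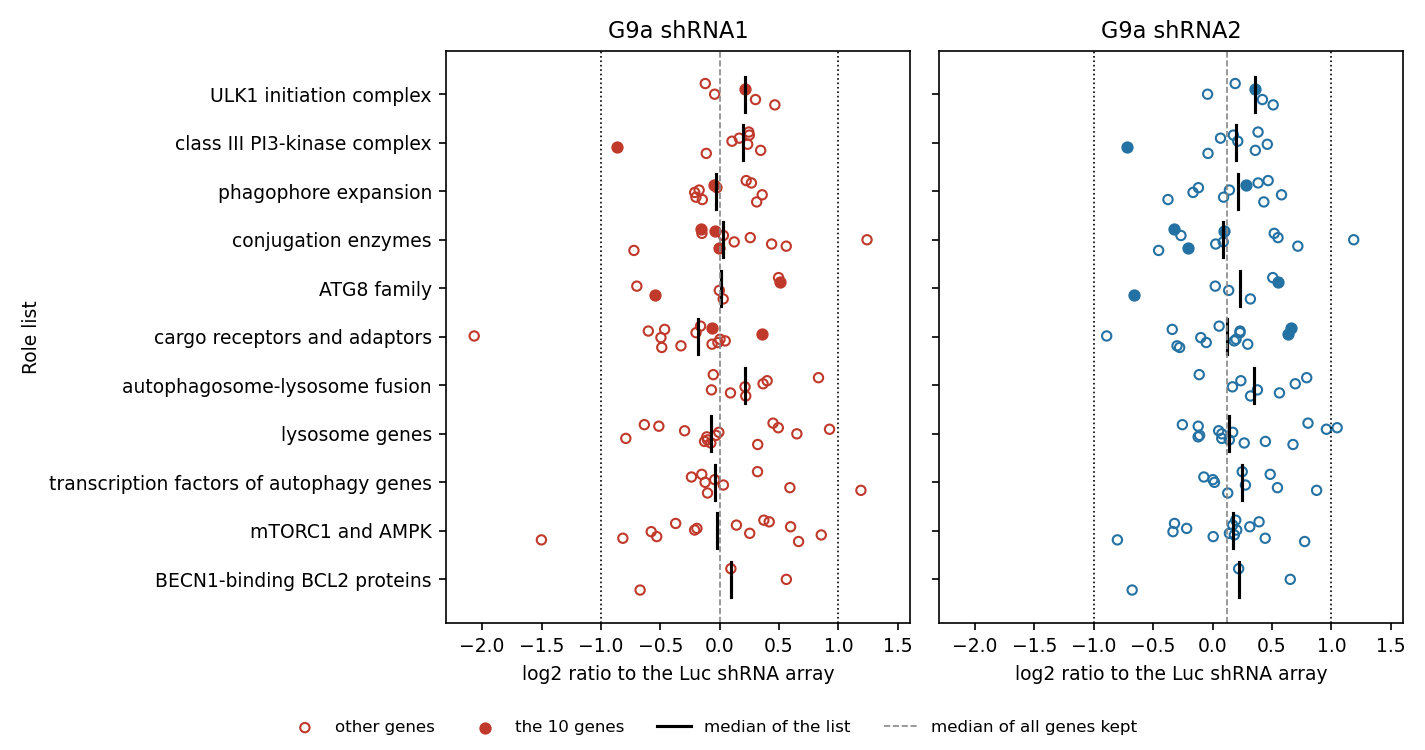
The log2 ratio to the Luc shRNA array of each of the 103 autophagy genes kept, by role, with G9a shRNA1 on the left and G9a shRNA2 on the right. Filled points are the 10 genes, black bars the median of a role and the dashed line the median of all genes kept (0.00 and 0.12); RETREG1 at -2.07 and ATG4A at 1.24 are the ends of the left panel.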

How the data were processed

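Total RNA of 3 SKOV-3 lines was hybridised to 1 Affymetrix array each. The authors made the probe set intensities with MAS5, per the submitters' processing notes, and deposited them as intensity values on a linear scale; its version and scaling target are not given in the sources used here. The deposited values were used unscaled (2% trimmed means of 106, 105 and 115 for Luc shRNA, G9a shRNA1 and G9a shRNA2). Precision is limited by the number of arrays.

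Of 54675 probe sets, 41097 carried 1 gene symbol in the platform annotation, 1801 several and 11777 none. Symbols were checked against RefSeq by Entrez identifier, 54 had no match and 0 were updated. Probe sets whose highest signal reached the median of all values (12.0) were kept, 30446 in all, and a gene was represented by its brightest probe set by mean log2 signal, which gave 13192 of 19775 genes. Neither shRNA's comparison could be tested, since each condition has 1 array, and limma on both shRNAs together was run only as an alternative. The 10 genes, the lists by role and the rule for named genes were chosen with earlier results of these data known. The rule names all 10 genes, EHMT2 and EHMT1, genes past 2-fold in a role and the 2 with the largest mean ratio in size. Promoters came from RefSeq (GRCh38.p14).

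Alternatives tried were a filter at the 75th percentile (89.7) or none, median centring, quantile normalization, a floor at the median, averages over probe sets, probe sets of the _s_at and _x_at types left out, and limma. Python 3.11.15, numpy 2.4.6, pandas 2.3.3, matplotlib 3.10.9, R 4.3.3 and limma 3.58.1 were used, and the limma step was tested on simulated data.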

Additional observations from a re-analysis of the deposited data

How the results depend on the processing

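The 10 genes kept a count of 0 past 2-fold under every alternative run. The ratio of BECN1 reversed to 0.51 with G9a shRNA1 and 0.38 with G9a shRNA2 when all its probe sets were averaged, the one under the filter included. Without probe sets of the _s_at and _x_at types BECN1 had none left above the filter. The count of genes past 1.5-fold lower with G9a shRNA1 (1) was 2 with median centring, 0 with all probe sets averaged and 0 without the _s_at and _x_at types. The count past 1.5-fold higher with G9a shRNA2 (2) was 1 with the filter at the 75th percentile, 0 with quantile normalization and 1 with all probe sets averaged. The count past 1.5-fold lower with G9a shRNA2 (2) was 1 with the filter at the 75th percentile, 0 with all probe sets averaged and 1 without the _s_at and _x_at types. With 2 alternatives added after the data were seen, averaging the probe sets past the filter gave 1 higher and 1 lower with G9a shRNA2, and centring on the median of the genes kept gave 0 higher. The median of the mTORC1 and AMPK genes with G9a shRNA1 was 0.30, against -0.03, with all probe sets averaged. Quantile normalization shifted the ratios with G9a shRNA2 by a median of -0.12, which lowered the median of every role with that shRNA and turned those of the conjugation enzymes and the cargo receptors to -0.02. The median of the transcription factors with G9a shRNA1 (-0.04) was 0.04 with all probe sets averaged and 0.02 after quantile normalization. ATG5 with each shRNA and ATG12 with G9a shRNA1, ratios near 0, changed sign under some settings, and ATG12 moved to -0.21 and -0.49 with its probe sets averaged, while MAP1LC3B stayed between 0.43 and 0.55 and SQSTM1 between 0.21 and 0.67. Several settings could not move MAP1LC3B or SQSTM1, since the filters and the floor leave a bright probe set as it is. Both MAP1LC3B probe sets are of the _s_at type, so leaving those types out kept its ratios as well. Apart from BECN1, the cause of the shifts above was not tested.

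limma, with both G9a shRNA arrays pooled into a group and the single Luc shRNA array assumed to vary as they do, gave 0 of 30446 probe sets with an adjusted p under 0.05 (2915 at an unadjusted p under 0.05), and 0 of the 10 genes (1, BECN1, unadjusted). In 30285 simulated probe sets this design called 0 of 200 changed ones, so it says nothing about stability. Without replicates, a ratio smaller than the local spread was not detectable, and dim probe sets such as those of TP53INP2 and ULK1 have the wider spreads. No paired analysis was possible because each condition has 1 array.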
